A study of Mus musculus with 6 samples.

Results

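The MHC class II genes and the genes of class II peptide loading were examined in germinal center (GC) B cells with and without HVEM, the TNF receptor family member encoded by *Tnfrsf14*. The members were the 10 genes *H2-Aa*, *H2-Ab1*, *H2-Eb1*, *Cd74*, *H2-DMa*, *H2-DMb1*, *H2-DMb2*, *H2-Oa*, *H2-Ob* and *Ciita*, chosen by symbol from the 23337 genes in the deposited table, and all 10 were found there. The samples were GC B cells of 3 WT (replicates 1, 3 and 5) and 3 Hvem-/- (replicates 2, 4 and 6) donor origin, each a sort of 50000 cells. The cells came from mixed bone marrow (BM) chimeras. These were immunized with the hapten-protein conjugate NP-CGG in alum after 8 weeks of reconstitution and analysed at day 11. The donors were C57BL/6, with CD45.1/2 marking the WT cells and CD45.2 the Hvem-/- cells in the labels. The paper instead gives CD45.1 for the WT cells. HVEM was missing from every cell of the Hvem-/- donor line and not from B cells alone, donor line and genotype coincide, and their effects cannot be told apart. Per the paper, the WT and Hvem-/- cells were sorted out of shared chimeras, but neither the labels nor the paper say which WT sample and which Hvem-/- sample share a mouse, so no pairing entered the tests. The labels give no age, and nothing states that the samples of a genotype came from separate mice, so the p-values cover only sample-to-sample spread, which may be technical.

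A class II molecule is a pair of an alpha and a beta chain that holds a peptide on the B cell surface for CD4+ T cells to read. GC B cells take up antigen through the B cell receptor, cut it in endosomes, load the peptides on class II and compete with them for help from T follicular helper cells. The invariant chain CD74 guards the groove of new class II molecules and brings them to endosomes, H2-DM exchanges the last piece of CD74 for peptide, H2-DO holds H2-DM in check, and CIITA is the coactivator that drives transcription of the family. The comparison asks whether the transcripts of this machinery differed between Hvem-/- GC B cells and WT GC B cells.

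Of the 10 genes, 8 lie on chromosome 17 of GRCm38 within the 224 kb from 34092340 to 34316674, where the class II region of the mouse MHC sits. Promoter sequence from RefSeq (GRCm38.p6) was at hand for 7 of the 10 genes, all of them in this region. The stretch from 110 to 11 bases before the transcription start is printed for 6 of them, because these hold 1 or more of the short motifs through which RFX, CREB and NF-Y family factors are known to recruit CIITA. Capitals mark 3 motifs on either strand, the Y box core CCAAT (read as ATTGG on the other strand), the RFX core AGCAAC and the CRE core TGACG. In *H2-Aa* the CRE core stands on each strand, overlapping in one palindrome.
H2-Aa, chr17:34287834-34287933, minus strand: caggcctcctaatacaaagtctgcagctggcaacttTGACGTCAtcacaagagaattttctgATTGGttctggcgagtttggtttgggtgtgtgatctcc
H2-Eb1, chr17:34305757-34305856, plus strand: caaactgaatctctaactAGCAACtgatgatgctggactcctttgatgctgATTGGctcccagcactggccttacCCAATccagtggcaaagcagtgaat
H2-Oa, chr17:34092269-34092368, plus strand: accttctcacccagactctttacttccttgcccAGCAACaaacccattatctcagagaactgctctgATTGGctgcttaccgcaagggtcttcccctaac
H2-Ob, chr17:34238795-34238894, plus strand: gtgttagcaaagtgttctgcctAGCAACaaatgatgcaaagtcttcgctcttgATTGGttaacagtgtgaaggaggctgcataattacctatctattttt
H2-DMb1, chr17:34153081-34153180, plus strand: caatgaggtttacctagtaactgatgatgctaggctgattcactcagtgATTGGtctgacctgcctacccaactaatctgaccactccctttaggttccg
H2-DMb2, chr17:34145139-34145238, plus strand: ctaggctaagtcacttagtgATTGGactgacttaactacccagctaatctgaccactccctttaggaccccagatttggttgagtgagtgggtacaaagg

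Of the 7 genes with an entry, the 6 printed held the Y box core, which 19.2% of the 32851 RefSeq promoter windows held in the same stretch. It began 48 bases before the start in *H2-Aa*, 59 in *H2-Eb1*, 43 in *H2-Oa*, 57 in *H2-Ob*, 61 in *H2-DMb1* and 90 in *H2-DMb2*, and *H2-Eb1* had another that began 35 bases before the start. The RFX core stood upstream of the Y box core in 3 genes, with 33 bases from the first base of one motif to the first base of the other in *H2-Eb1*, 34 in *H2-Oa* and 31 in *H2-Ob*. Both motifs together were in 0.983% of all windows, the RFX core with or without the other in 5.23% and the CRE core, here found only in *H2-Aa*, in 10.1%. Neither of the 2 windows of *H2-DMa* held any of the 3 motifs in this stretch. These matches describe letters and no binding was measured.

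The libraries held 2505918 to 3636163 reads in genes, so that every member was counted, from 263 reads over all samples in *H2-Oa* to 103163 in *Cd74*. The values given per sample are normalized counts, which are reads divided by the size factor of the sample. Reads of *Tnfrsf14* numbered 13, 11 and 17 in the WT libraries against 0, 0 and 4 in the Hvem-/- libraries, in the direction of the labels (log2 fold change -3.04, standard error (SE) 0.911, adjusted p = 0.178 by the quasi-likelihood test of edgeR). The 10 markers of GC B cells in the table, among them *Ms4a1*, summed to 12955 to 14362 normalized counts in WT and 12766 to 14473 in Hvem-/- samples.

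Per kb of transcript, *Cd74* was the most abundant member in every sample, at 13052 ± 1716 normalized counts per kb in WT against 10641 ± 2371 in Hvem-/- samples (SD, n = 3 each). It ranked 2 of 22881 genes with a known length. *H2-Ab1* and *H2-Aa*, the beta and alpha chains of I-A, followed with 4309 ± 244.2 and 2940 ± 261.4 per kb in WT (SD, n = 3), at ranks 8 and 15. The order of these 3 genes held in all samples, since the lowest *Cd74* value, 8783 per kb, lay above the highest *H2-Ab1* value, 4586, and the lowest *H2-Ab1* value, 3530, above the highest *H2-Aa* value, 3227. *H2-Ob* (613.2 to 794.4 per kb over the 6 samples) and *H2-Eb1* (483.8 to 633.0) came next and overlapped. *Ciita* (174.0 to 204.0), *H2-DMb2* (157.1 to 232.8) and *H2-DMb1* (128.0 to 196.1) overlapped each other as well. *H2-DMa* (53.1 to 116.4) and *H2-Oa* (27.2 to 44.9) were lowest and did not overlap. Together the 10 genes took 1.14% ± 0.0969 of all reads in WT and 0.943% ± 0.130 in Hvem-/- samples (SD, n = 3 each), and *Cd74* alone gave 58.0% ± 2.72 of these class II reads in WT and 54.5% ± 3.72 in Hvem-/- samples.

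**Figure D1:**
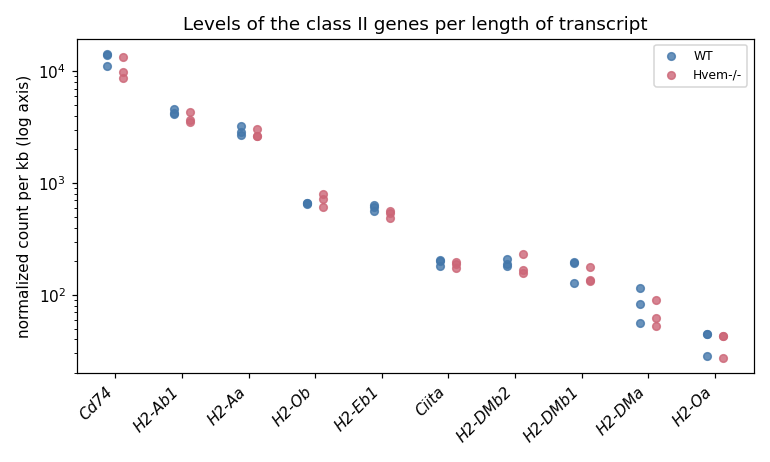
Normalized counts per kb of transcript on a log axis for the 10 genes, ordered by their mean, with 1 point for each of 3 WT and 3 Hvem-/- samples. *Cd74*, *H2-Ab1* and *H2-Aa* stand apart at the top and *H2-Oa* is lowest, between 27.2 and 44.9 per kb.

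No class II gene passed the test between Hvem-/- and WT GC B cells at an adjusted p under 0.01. That was 0 of 10 members in edgeR, against 0.218% of the 9653 genes tested (0.186% higher and 0.0311% lower in Hvem-/- samples). All 10 members had enough reads to be tested. In DESeq2 and in limma 0 of the 10 passed too. With the p left unadjusted, 1 of 10, *Cd74*, was lower at p under 0.05 and 0 were higher in edgeR, where 5.22% of all tested genes were lower and 6.72% higher, and DESeq2 and limma each had 1 such gene as well. The normalized counts of the genotypes overlapped for all 10 genes, whereas 16.8% of all tested genes showed no overlap (8.74% higher and 8.09% lower in Hvem-/- samples). The log2 fold change of Hvem-/- over WT was below 0 for 9 of 10 members, with a median of -0.13, while it was below 0 for 50.8% of all tested genes, whose median was -0.0058. In samples of sorted cells, fewer cells of a type and less RNA per cell cannot be told apart, and transcripts say nothing of the class II protein on the surface.

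**Figure D2:**
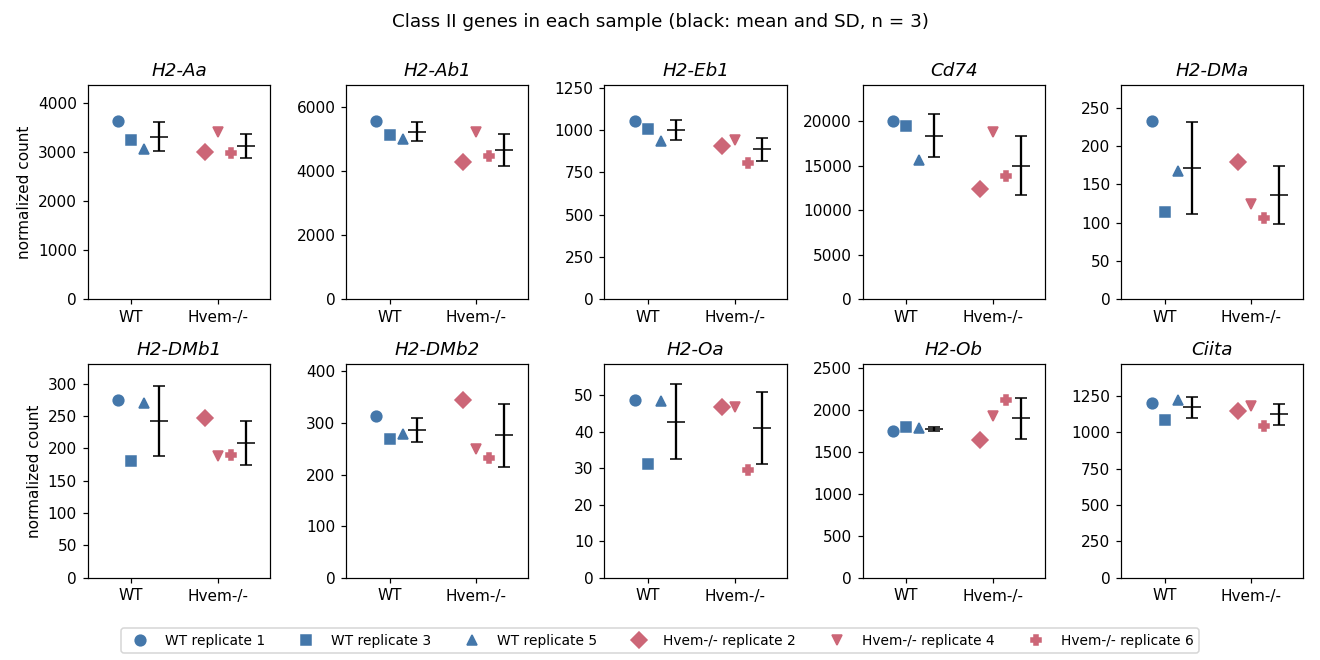
Normalized counts of the 10 genes in each sample, on axes that start at 0, with WT samples in blue and Hvem-/- samples in red and the mean and SD of each genotype (n = 3) in black. The genotypes overlap in all 10 panels, and for *Cd74* the Hvem-/- replicate 4 (18769) lies among the WT samples (15628 to 20073).

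Among the classical chains, *H2-Ab1* stood at 5558, 5106 and 5002 normalized counts in WT replicates 1, 3 and 5, against 4278, 5216 and 4447 for Hvem-/- replicates 2, 4 and 6. All further values follow this order of replicates. Thus Hvem-/- replicates 2 and 6 lay below every WT sample and replicate 4 lay within the WT range. The log2 fold change was -0.17 (SE 0.106, 95% interval -0.39 to 0.048, adjusted p = 0.557 from edgeR). *H2-Aa*, its partner chain, had 3640, 3247 and 3063 normalized counts in WT and 2997, 3417 and 2985 in Hvem-/- samples, with replicates 2 and 6 again the lowest (log2 fold change -0.087, 95% interval -0.31 to 0.14). The level of *H2-Aa* per kb relative to *H2-Ab1* per kb was 0.682 ± 0.0229 in WT and 0.726 ± 0.0248 in Hvem-/- samples (SD, n = 3 each).

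*H2-Eb1* encodes the beta chain of I-E, whose alpha chain gene is defective in C57BL/6 mice, so that these mice show no I-E on the surface. It had 1056, 1010 and 935.7 normalized counts in WT and 908.9, 941.4 and 807.5 in Hvem-/- samples. Hvem-/- replicates 2 and 6 were again the lowest (log2 fold change -0.18, SE 0.117, 95% interval -0.42 to 0.065, adjusted p = 0.581 from edgeR). The remnant alpha chain gene *H2-Ea-ps* had 3 to 8 reads in any sample, too few to test. *H2-Eb2*, a further beta chain gene beside *H2-Eb1*, had 381.5 ± 46.3 normalized counts in WT and 417.6 ± 96.5 in Hvem-/- samples (SD, n = 3 each).

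*Cd74* lies apart from the others, on chromosome 18 from 60803848 to 60812652, and showed the widest spread of the abundant genes. It had 20073, 19509 and 15628 normalized counts in WT and 12383, 18769 and 13861 in Hvem-/- samples, a mean of 18403 ± 2420 against 15004 ± 3343 (SD, n = 3 each). Hvem-/- replicates 2 and 6 were the lowest of the 6 samples and replicate 4 exceeded WT replicate 5. The log2 fold change was -0.30 (SE 0.130, 95% interval -0.57 to -0.029, unadjusted p = 0.0316), and the adjusted p over all genes was 0.356 from edgeR. Without Hvem-/- replicate 4 it was -0.49, still with an adjusted p = 0.0623 from edgeR, and without Hvem-/- replicate 2 it was -0.18 (adjusted p = 0.549).

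The genes of H2-DM, the peptide exchange factor, had fewer reads and varied more. *H2-DMa*, its alpha chain, had 233.3, 113.2 and 167.3 normalized counts in WT and 179.3, 124.5 and 106.4 in Hvem-/- samples. Samples of each genotype thus spread over most of the range of the other, with a coefficient of variation of 35.1% in WT and 27.8% in Hvem-/- samples. The log2 fold change of *H2-DMa*, -0.33, was the lowest of the 10 but had an SE of 0.242 (95% interval -0.84 to 0.17, adjusted p = 0.620 from edgeR), and with single samples left out it ranged from -0.57 (without Hvem-/- replicate 2) to -0.053 (without WT replicate 1, the highest sample). Exons of *H2-DMa* overlap those of *Brd2* in the annotation, and those of *H2-Oa*, *Ciita* and *Cd74* overlap *BC051537*, *Dexi* and *Mir5107*. No source used here states whether strand was used in counting, so reads of such pairs may not be separated.

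The beta chain of H2-DM is encoded in the mouse by a pair of neighbouring genes, *H2-DMb1* and *H2-DMb2*. Their coding sequences, 783 bases each without the stop codon, are 95.9% identical in GENCODE vM21. The longest unbroken run they share has 221 bases, at positions 391 to 611 of both. It is printed because a read of 100 bases that falls within it matches both genes, and only a mate that lies outside it could tell them apart.
H2-DMb1 and H2-DMb2, shared run, chromosome 17: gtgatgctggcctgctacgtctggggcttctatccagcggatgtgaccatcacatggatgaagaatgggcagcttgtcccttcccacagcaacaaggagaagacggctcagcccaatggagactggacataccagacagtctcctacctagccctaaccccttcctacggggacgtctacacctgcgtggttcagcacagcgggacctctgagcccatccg

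Of all 100-base windows of the *H2-DMb1* transcript, 13.7% occur in *H2-DMb2*, and 12.9% the other way, and no other member shared such a window with another gene. How the authors' counting treated reads of that kind is not given in the sources used here, so the split between both genes is uncertain. *H2-DMb1* had 275.3, 179.8 and 270.3 normalized counts in WT and 247.3, 188.1 and 189.2 in Hvem-/- samples (log2 fold change -0.23, 95% interval -0.62 to 0.16). WT replicate 3 was the lowest of the 6 samples here. *H2-DMb2* had 313.4, 269.7 and 277.8 in WT and 345.3, 249.0 and 232.9 in Hvem-/- samples (log2 fold change -0.063, 95% interval -0.41 to 0.28, turning to 0.045 without Hvem-/- replicate 6), with the highest value in Hvem-/- replicate 2. With the reads of both genes summed the log2 fold change was -0.14 (SE 0.152, 95% interval -0.45 to 0.18, adjusted p = 0.776 from edgeR).

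H2-DO, the inhibitor of H2-DM, pairs *H2-Oa* with *H2-Ob*, and B cells are a main site of its expression. *H2-Ob* had 1750, 1790 and 1778 normalized counts in WT, a coefficient of variation of 1.17%, and 1637, 1931 and 2121 in Hvem-/- samples, which lay on both sides of the WT samples. It was the member whose log2 fold change was above 0 (0.092, SE 0.114, 95% interval -0.15 to 0.33, adjusted p = 0.803 from edgeR). *H2-Oa* had 48.8, 31.1 and 48.5 normalized counts in WT and 46.8, 46.8 and 29.6 in Hvem-/- samples, with the widest interval of the 10 genes (log2 fold change -0.068, 95% interval -0.76 to 0.62). Per kb, *H2-Ob* exceeded *H2-Oa* by 14.3 to 29.2 times in the 6 samples. The summed level of the 3 DM genes per kb over that of both DO genes was 0.641 ± 0.112 in WT and 0.551 ± 0.182 in Hvem-/- samples (SD, n = 3 each), from 0.524 to 0.748 in WT and from 0.420 to 0.759 in Hvem-/- samples, which overlap.

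*Ciita*, on chromosome 16 from 10480059 to 10528418, was among the steadiest of the 10 genes. It had 1201, 1086 and 1225 normalized counts in WT and 1145, 1181 and 1045 in Hvem-/- samples. These ranges overlap, and Hvem-/- replicate 6 was the lowest of all. Its log2 fold change was -0.065 (SE 0.114, 95% interval -0.30 to 0.17, adjusted p = 0.864 from edgeR). In folds, the interval of *Ciita* ran from 0.811 to 1.13 times the WT level, that of *H2-Aa* from 0.805 to 1.10 and that of *H2-Ab1* from 0.761 to 1.03. For all 10 genes the 95% interval stayed within a 2-fold change in either direction, and for 7 of them within a 1.5-fold change, all but *H2-DMa*, *H2-DMb1* and *H2-Oa*. The biological coefficient of variation in edgeR had a median of 11.7% over the 10 genes and of 18.5% over all tested genes.

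**Figure D3:**
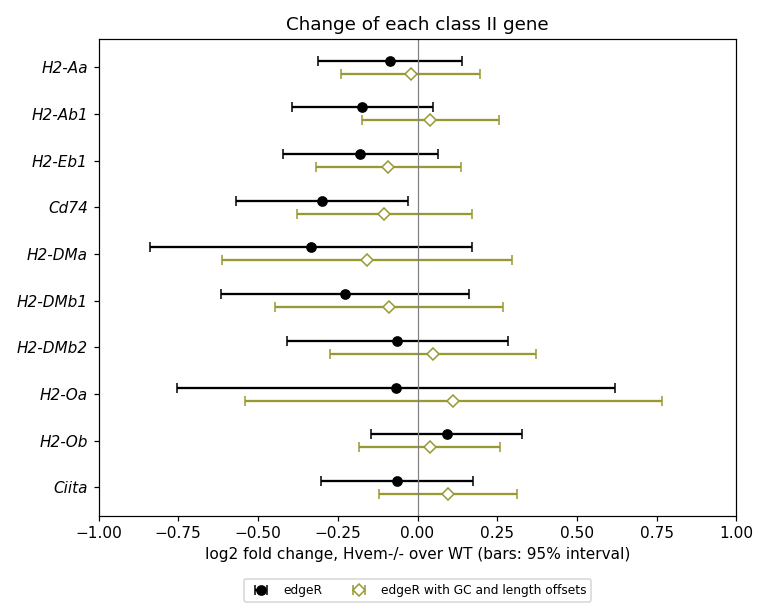
Log2 fold change of Hvem-/- over WT GC B cells for each gene with its 95% interval, from edgeR (black circles) and from edgeR with offsets for GC content and transcript length (open diamonds). All intervals lie between -0.84 and 0.77, and that of *Cd74* includes 0 with the offsets.

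The Hvem-/- samples did not move as one. Hvem-/- replicate 6 was below every WT sample in 8 of 10 genes, replicate 2 in 5 and replicate 4 in 1, while 33.4%, 27.2% and 26.6% of all tested genes were below every WT sample in these replicates. On the other side, WT replicate 1 had the highest value of the 6 samples in 7 of the 10 genes. The share of all tested genes with their highest value in this sample was not computed. The median of the log2 difference from the WT mean over *H2-Aa*, *H2-Ab1*, *H2-Eb1* and *Cd74* was -0.21, 0.019 and -0.27 for the Hvem-/- samples (replicates 2, 4, 6) against 0.11, -0.0059 and -0.10 for the WT samples (replicates 1, 3, 5). The DM genes followed another order, with medians of 0.13, -0.34 and -0.33 in Hvem-/- and 0.21, -0.40 and 0.028 in WT samples.

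**Figure D4:**
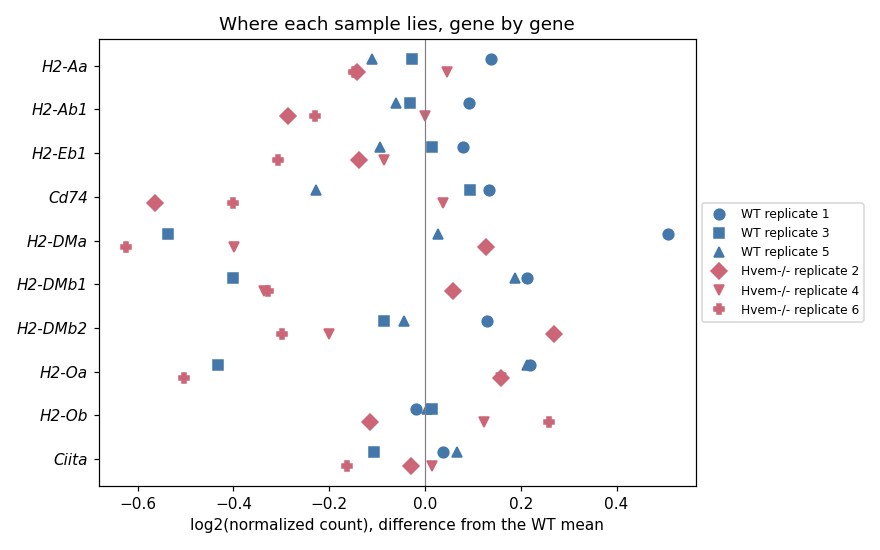
Difference of each sample from the WT mean of log2 normalized counts, gene by gene, with a symbol for each sample (WT blue, Hvem-/- red). Hvem-/- replicates 2 and 6 lie to the left for *H2-Ab1*, *H2-Eb1* and *Cd74*. For *H2-DMa* and *H2-DMb1*, Hvem-/- replicates 4 and 6 and WT replicate 3 are low.

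Over all tested genes split into deciles of transcript GC content, the median log2 fold change went from 0.21 at the lowest GC (decile 1) to -0.27 at the highest (decile 10), and 9 of the class II transcripts have a GC content of 51.0% to 57.3%. *H2-Ob*, at 46.0%, is the exception. The median over all tested genes was -0.21 in decile 9, which holds *Cd74* (log2 fold change -0.30), *H2-DMa* (-0.33), *H2-Oa* (-0.068) and *Ciita* (-0.065), and 0.063 in decile 4, which holds *H2-Ob* (0.092). With offsets for GC content and length in each sample, 5 of the 10 genes were below 0 and 5 above, the median was 0.0087, and *Cd74* had a log2 fold change of -0.10 (SE 0.132, 95% interval -0.38 to 0.17, adjusted p = 0.892 from edgeR). The directions of *H2-Ab1* (0.040), *H2-DMb2* (0.048), *H2-Oa* (0.11) and *Ciita* (0.096) turned, and 0 of 10 genes had an unadjusted p under 0.05.

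**Figure D5:**
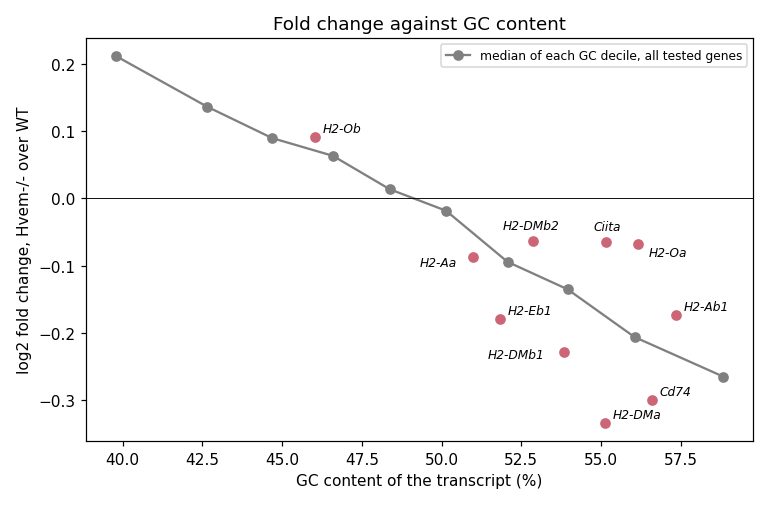
Log2 fold change of Hvem-/- over WT against the GC content of the longest coding transcript, with the median of each GC decile of all tested genes (grey line) and the 10 class II genes (red). The line falls from 0.21 to -0.27, and the class II genes lie on both sides of it.

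The other genes of the pathway were taken from lists. Of the 7 genes of the complex that binds class II promoters, none passed the test in edgeR. At an unadjusted p under 0.05, 1, *Nfya*, was higher and 0 were lower, against 6.72% and 5.22% of all tested genes. The median log2 fold change of the 7 was 0.21 (0.12 with the GC and length offsets). *Nfya*, the NF-Y subunit that contacts the Y box printed above, had 424.7, 477.2 and 463.7 normalized counts in WT and 590.3, 562.5 and 636.1 in Hvem-/- samples. All 3 Hvem-/- samples thus exceeded all 3 WT samples, which 8.74% of the tested genes did. Its log2 fold change was 0.38 (SE 0.127, 95% interval 0.12 to 0.65, adjusted p = 0.217 from edgeR) and 0.45 with the offsets. *Nfyb* and *Nfyc*, the other NF-Y subunits, had log2 fold changes of 0.30 (95% interval -0.079 to 0.68) and 0.077 (-0.38 to 0.54). *Rfx5*, the largest subunit of RFX, had 422.2 ± 15.1 normalized counts in WT and 500.6 ± 32.6 in Hvem-/- samples (SD, n = 3 each), again without overlap (log2 fold change 0.24, adjusted p = 0.476 from edgeR). Its partners *Rfxank* and *Rfxap* had low counts and log2 fold changes of -0.012 and 0.036 (95% intervals -0.78 to 0.76 and -0.99 to 1.06), and *Creb1*, which can bind the CRE core, had one of 0.21 (95% interval -0.077 to 0.50).

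Of 7 tested regulators of *Ciita* in B cells, none passed in edgeR. The median log2 fold change of the 7 was -0.066. With the p unadjusted, 2 were higher and 1 lower at p under 0.05, against 6.72% and 5.22% of all tested genes. The genes past that p were *Ezh2*, a histone methyltransferase that GC B cells need (log2 fold change 0.38, adjusted p = 0.199 from edgeR), and the B cell factors *Ebf1* (0.36, adjusted p = 0.317) and *Pax5* (-0.30, adjusted p = 0.409). At an adjusted p under 0.01 in edgeR, 0.0311% of all tested genes were lower and 0.186% higher. Of 12 tested genes of antigen processing and class II turnover, 1 was lower and 0 were higher at that threshold. It was *Ctse*, which encodes the endosomal protease cathepsin E, with 1741, 1894 and 1933 normalized counts in WT and 915.6, 1013 and 957.6 in Hvem-/- samples (log2 fold change -0.95, SE 0.111, adjusted p = 0.000106 from edgeR). *Ap2m1*, a subunit of the endocytic adaptor AP-2 (log2 fold change -0.52, adjusted p = 0.202 from edgeR), and the protease gene *Ctsb* (-0.43, adjusted p = 0.397) were lower at an unadjusted p under 0.05 and did not pass. At that p, 3 of the 12, *Ctse* among them, were lower and 0 higher, against 5.22% and 6.72% of all tested genes. The median of this list was -0.17, and -0.027 with the offsets. The list does not hold the MARCH ubiquitin ligases, which turn over class II on the surface, because the symbols of that family were converted to dates in the table.

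Other cells that could be in the sort differ in class II, which mouse T cells lack and dendritic cells and macrophages carry. The 19 markers of other antigen-presenting cells in the table summed to 337.3 to 459.9 normalized counts in WT and 256.1 to 584.8 in Hvem-/- samples, which overlap, with *C1qa* at 0 in all samples and *Flt3* the most abundant. Of the 7 that could be tested, 0 passed in edgeR and 0 had an unadjusted p under 0.05. Markers of T cells (14 genes) summed to 612.5 to 680.5 in WT and 347.6 to 535.7 in Hvem-/- samples, which do not overlap. Of the 10 tested, 0 passed in edgeR. Before adjustment, 4 were lower and 0 higher at p under 0.05, against 5.22% and 6.72% of all tested genes. Markers of follicular B cells (9 genes) summed to 1562 to 1792 in WT and 1235 to 1387 in Hvem-/- samples, without overlap either. *Fcer2a*, which encodes CD23 and is also on the list of the GC light zone, was lower (log2 fold change -1.01, adjusted p = 0.00704 from edgeR). The 7 plasma cell markers, a fate in which class II transcription is shut off, summed to 2539 to 2782 in WT and 2532 to 2894 in Hvem-/- samples, which overlap. Most of this sum came from 1 gene, *Slamf7*, with 1793 ± 133.1 normalized counts in WT and 1931 ± 181.5 in Hvem-/- samples (SD, n = 3 each). *Tnfrsf17* was at 0 in all samples and *Sdc1* had too few reads to test. The part of these other cell types in the class II values was not tested. At an adjusted p under 0.01 in edgeR, 2 of 9 tested GC dark zone genes, *Mki67* and *Ccnb1*, were higher and 0 lower. Both are also among the mitosis genes given below. The dark zone list had a median log2 fold change of 0.37. Of 13 light zone genes, 0 were higher and 1, *Fcer2a*, was lower (median -0.018). Of 10 mitosis genes, 10 were higher (median 0.78), but these had been named earlier in these data. Among all tested genes, 0.186% were higher and 0.0311% lower. Their part was not tested either.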

How the data were processed

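RNA sequencing of sorted GC B cells (3 WT and 3 Hvem-/- samples) was analysed from the table the authors deposited. Per the paper's methods, RNA was amplified with the Ovation RNA-seq System V2, sequenced as 100 bp paired ends, aligned with STAR and run through DESeq2, versions not given. Tools named in the submitters' processing notes are TopHat2 2.0.8b, Cufflinks 2.1.1 and CASAVA, with build mm10. The deposited value of a sample is a signal, read counts divided by its size factor, beside the authors' mean of that signal. The authors' own comparison in the table (log2 fold changes, standard errors, a Wald score and p-values) was not used.

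Reads were recovered by dividing each sample's values by the smallest one, which gave whole numbers for 100% of values (tolerance 1e-06). The quasi-likelihood test of edgeR 4.0.16 (R 4.3.3) was run on them after filterByExpr and TMM scaling (genotype alone, Benjamini-Hochberg over 9653 genes, threshold 0.01). The SE is the absolute log2 fold change divided by the root of the F statistic, and 95% intervals use the degrees of freedom of the fit. Means and SDs are of normalized counts. Lengths and GC content came from GENCODE vM21 (GRCm38, the longest basic coding transcript) for 98.9% of the tested genes. Of the symbols, 20929 matched the annotation as written and 1952 through a synonym, and 25 that a spreadsheet had converted to dates were kept and not named.

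Alternatives were DESeq2 1.42.0, upper-quartile factors, no filter, a filter of 10 reads in 3 samples, limma 3.58.1 on log2(value + 1), loess offsets for GC content and length (span 0.5), a threshold of 0.05 and each sample left out. Functions were tested on simulated data. The members and the gene lists were chosen with earlier results of these data known. Named are the members, all genes of the promoter complex list and Tnfrsf14. From the other lists, some genes past the threshold or at an unadjusted p under 0.05 are named (at most 4 per list). Flt3, Ms4a1 and Slamf7 were named as the most abundant of their marker lists. Other list genes past the threshold are given only as counts. H2-Ea-ps and H2-Eb2 were named as neighbours in the locus, C1qa and Tnfrsf17 as markers at 0 and Sdc1 as a marker with too few reads to test. Genes of one family are uncertain where reads fit several copies.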

Additional observations from a re-analysis of the deposited data

How the results depend on the processing

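The count of 0 changed genes among the 10 class II members held in all alternatives run for it: DESeq2, upper-quartile factors, both other filters, limma, the GC and length offsets, a threshold of 0.05 and each of the 6 samples left out. With 0.218% of all tested genes past the threshold in the main fit, 0 of 10 lies near the share over all genes, so its constancy says little about the members. The number of changed genes in all moved more, from 21 to 52 with DESeq2, 84 with no filter on low counts, 10 with the GC and length offsets, 49 at a threshold of 0.05, and 3 to 31 with samples left out, where the lowest count came without WT replicate 1. The median log2 fold change of the 10 genes, -0.13, was 0.0087 with the GC and length offsets, -0.18 to -0.051 with samples left out and -0.16 with upper-quartile factors. Of 120 single-gene values under an alternative, 110 kept their direction. With the offsets the direction turned for H2-Ab1 (0.040), H2-DMb2 (0.048), H2-Oa (0.11) and Ciita (0.096). With samples left out it turned for H2-DMb2 (-0.26 to 0.045) and H2-Oa (-0.24 to 0.12). The cause was not tested. The difference in the share of reads taken by the class II genes, Hvem-/- minus WT, was -0.20 percentage points, -0.27 to -0.15 with samples left out (an alternative added after the data were seen) and -0.20 without the 1 immunoglobulin row. No paired analysis was possible because WT and Hvem-/- samples share no replicate number and, although both came from shared chimeras, no source used here says which samples share a mouse. The effect of pairing was not tested. With 263 reads in all, H2-Oa had the widest interval.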

Other observations

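The genes of MHC class I and its peptide loading gave a median of a similar size. Of 13 tested genes of class I and its peptide loading, 0 passed in edgeR. With the p unadjusted, 0 were higher and 2 lower at p under 0.05, against 6.72% and 5.22% of all tested genes. Their list had a median log2 fold change of -0.13 (-0.0014 with the GC and length offsets). *H2-D1*, a class I heavy chain gene, had 2273, 1906 and 2452 normalized counts in WT and 1980, 1850 and 1340 in Hvem-/- samples. These ranges overlap, and the log2 fold change was -0.36 (SE 0.138, adjusted p = 0.288 from edgeR). Reads of H2-D1 may be shared with other class I genes. For *Calr*, a chaperone of class I loading, it was -0.32 (adjusted p = 0.397 from edgeR).

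Among 10 tested GC B cell markers 0 passed in edgeR. Before adjustment, 1 was higher and 3 were lower at p under 0.05, against 6.72% and 5.22% of all tested genes. *Rgs13*, a regulator of G protein signaling, had 323.2, 507.1 and 420.4 normalized counts in WT and 565.8, 728.5 and 989.6 in Hvem-/- samples (log2 fold change 0.86, adjusted p = 0.0283 from edgeR). The B cell receptor chains *Cd79a* and *Cd79b*, which feed antigen to the class II pathway, had log2 fold changes of -0.45 and -0.35 (adjusted p = 0.233 and 0.239 from edgeR), and -0.29 and -0.20 with the offsets. *S1pr2*, a receptor that keeps B cells in the GC, had one of -0.31 (adjusted p = 0.352 from edgeR).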
